A study of Mus musculus with 16 samples.

Results

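A set of 9 genes was examined that stood higher in liver endothelial cells (ECs) from mice labelled as endothelial Zeb2 knock-outs (KO) than in ECs from wild-type (WT) mice. They were Map1b, Rerg, Igsf23, Palm, Ifitm10, Capn3, N4bp3, Casp6 and Abhd6, taken by gene symbol from the 47729 genes listed for each library, and all 9 were listed. They were chosen by their counts in the 4 EC libraries, as genes past an adjusted p under 0.05 with a higher level under the KO label, so those EC values are given as a description without a test. The libraries of hepatic stellate cells (HSCs), Kupffer cells and hepatocytes took no part in the choice.

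RNA was sequenced from ECs, HSCs, Kupffer cells and hepatocytes of unchallenged adult livers, as 16 libraries, 2 for each combination of cell type and genotype label. Every animal received tamoxifen, 2 mg per day on 5 consecutive days. The KO animals carried Zeb2 alleles with loxP sites around exon 7, on an R26R CAG-boosted eGFP reporter background, together with Cdh5-CreERT2, a tamoxifen-inducible Cre driven by the VE-cadherin promoter in endothelium. WT animals were littermates without Cre, given the same tamoxifen. The methods of the study give males of 8 weeks as the default and 2 weeks after tamoxifen as the default time for RNA, and the strain was not given in the sources used here. HSCs were sorted by their ultraviolet autofluorescence, Kupffer cells as F4/80+ cells and ECs as Meca32+ cells, and hepatocytes were separated by centrifugation. No label states that the 2 libraries of a group came from separate mice, so the p-values measure only the spread between these samples, which may be technical.

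Counts assigned to genes ranged from 12872706 to 15690506 per library, and levels are given as CPM, a gene's count scaled by the library's total, on which 3 counts correspond to 0.191 to 0.233 CPM. The defining EC markers, among them Pecam1, Cdh5, Stab2 and Clec4g, were present in all 4 EC libraries. The floxed gene, Zeb2, did not have fewer counts in KO-labelled ECs, with 106.5 and 105.7 CPM in WT libraries 34 and 38 and 198.9 and 130.1 CPM in KO libraries 6 and 46 (log2 fold change 0.62, SE 0.24, adjusted p = 0.303 by edgeR's quasi-likelihood test). These counts cover the whole gene and not exon 7 alone, and the EC groups are therefore called libraries labelled KO or WT throughout. The study itself reported efficient deletion of Zeb2 in endothelium after tamoxifen, at the mRNA level and as recombination in most ECs.

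Liver sinusoidal ECs form a thin, fenestrated lining without a continuous basement membrane, and take up waste molecules from blood. Zeb2 is a zinc finger and homeodomain transcription factor that binds E-box-like DNA elements and often represses its targets. The 9 genes have no single pathway in common. Map1b and Palm encode proteins of the cytoskeleton and the inner face of the plasma membrane, Rerg a small GTPase, Igsf23 and Ifitm10 transmembrane proteins, Capn3 and Casp6 proteases, N4bp3 a binding partner of the ubiquitin ligase Nedd4, and Abhd6 a lipid hydrolase.

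The genes lie on 8 chromosomes of the mouse genome build GRCm38, with Igsf23 and Ifitm10 far apart on chromosome 7. RefSeq promoter windows (build GRCm38.p6) were matched for 8 of the 9 genes, all but Rerg, and were searched for CACCTG, the E-box form bound by Zeb proteins, and for its shorter core CACCT, which every CACCTG contains, on both strands. CACCTG was present for 3 of these 8 genes (Igsf23, Ifitm10 and Abhd6), against 22.6% of the 27025 genes with a window, and CACCT for 6 of 8, against 55.2% of all genes. A match describes the letters of the window and is not evidence of binding. The stretches below are all those upstream of an annotated start, with annotated exon bases left out, that held either motif, printed 5′ to 3′ on the strand of the gene, and capitals mark a motif or its reverse complement (CAGGTG for the full form and AGGTG for the core).
Igsf23, chr7:19953655-19953782, minus strand: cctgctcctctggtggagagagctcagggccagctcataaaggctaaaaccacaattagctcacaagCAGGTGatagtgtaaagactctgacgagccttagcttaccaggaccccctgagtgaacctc
Igsf23, chr7:19950757-19950993, minus strand: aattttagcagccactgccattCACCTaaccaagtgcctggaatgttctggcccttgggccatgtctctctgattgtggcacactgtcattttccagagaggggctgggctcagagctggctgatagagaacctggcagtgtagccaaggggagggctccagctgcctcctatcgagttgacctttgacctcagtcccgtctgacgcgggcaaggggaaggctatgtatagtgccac
Ifitm10, chr7:142372442-142372577, minus strand: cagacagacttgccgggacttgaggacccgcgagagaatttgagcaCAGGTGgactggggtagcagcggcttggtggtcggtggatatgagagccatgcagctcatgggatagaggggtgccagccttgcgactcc
Ifitm10, chr7:142373754-142373996, minus strand: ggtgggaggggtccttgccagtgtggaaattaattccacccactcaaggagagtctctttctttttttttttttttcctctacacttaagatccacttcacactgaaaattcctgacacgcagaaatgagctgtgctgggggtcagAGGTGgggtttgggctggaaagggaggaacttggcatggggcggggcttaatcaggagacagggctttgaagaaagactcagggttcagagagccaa
Capn3, chr2:120476659-120476908, plus strand: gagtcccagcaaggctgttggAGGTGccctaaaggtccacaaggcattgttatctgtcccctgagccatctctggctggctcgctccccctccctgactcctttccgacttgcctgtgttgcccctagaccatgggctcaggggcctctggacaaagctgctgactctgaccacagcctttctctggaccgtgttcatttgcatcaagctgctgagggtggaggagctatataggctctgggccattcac
N4bp3, chr11:51651214-51651323, minus strand: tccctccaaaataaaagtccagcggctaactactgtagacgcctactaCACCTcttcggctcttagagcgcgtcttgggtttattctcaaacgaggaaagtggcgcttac

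The CAGGTG of Igsf23 began at position -61 and that of Ifitm10 at position -204 on the strand of the gene, counted from 0 at the annotated start. In Abhd6 the motif lay within an annotated first exon, at position 16 from one start and at -62 from another. Of the remaining genes, Map1b had CACCT only downstream of its start, at position 26, and neither motif was in the windows of Palm or Casp6.

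Map1b (chr13:99421446-99516540, minus strand) encodes a microtubule-associated protein best known for stabilising microtubules in growing axons. Its level in ECs was 7.95 and 10.2 CPM in WT libraries 34 and 38 and 75.6 and 88.5 CPM in KO libraries 6 and 46. Both KO-labelled libraries stood far above both WT libraries, with a fitted log2 fold change of 3.19 (SE 0.28, n = 2 per label).
Palm (chr10:79793572-79820896, plus strand) encodes paralemmin, a lipid-anchored protein of the cytoplasmic side of the plasma membrane. It had 8.51 and 6.06 CPM in the WT and 46.2 and 54.9 CPM in the KO-labelled EC libraries, and the fitted log2 fold change was 2.79 (SE 0.33, n = 2 per label).

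Rerg (chr6:137054825-137170497, minus strand) encodes a Ras-like GTPase named as an oestrogen-regulated growth inhibitor. It was among the lowest of the 9 genes in WT ECs, with 3.35 and 1.32 CPM, and reached 20.2 and 33.9 CPM in the KO-labelled ECs. The fitted log2 fold change of 3.53 (SE 0.58, n = 2 per label) had the widest error of the 9, and leaving out each EC library in turn gave 3.00 to 4.40.

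Igsf23 (chr7:19937305-19950756, minus strand) belongs to the immunoglobulin superfamily of cell surface proteins. Its EC libraries had 2.44 and 3.88 CPM under the WT label and 20.9 and 30.9 CPM under the KO label, a fitted log2 fold change of 3.05 (SE 0.44, n = 2 per label). Ifitm10 (chr7:142325837-142373753, minus strand) is a member by sequence of the family of interferon-induced transmembrane proteins. It had 24.8 and 16.9 CPM in WT and 88.2 and 120.7 CPM in KO-labelled ECs, with a fitted log2 fold change of 2.33 (SE 0.32, n = 2 per label). For both genes the lower KO-labelled library stood well above the higher WT library.

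The proteases were measured with smaller errors than the 5 genes above. Capn3 (chr2:120456019-120504913, plus strand), a calcium-dependent calpain best known from skeletal muscle, had 20.3 and 21.8 CPM in WT and 71.4 and 80.4 CPM in KO-labelled ECs (log2 fold change 1.85, SE 0.24). Casp6 (chr3:129901425-129914103, plus strand), an effector caspase that cleaves nuclear lamin, had 50.5 and 55.5 CPM in WT and 137.6 and 142.6 CPM in KO-labelled ECs (log2 fold change 1.41, SE 0.21). Replicate libraries of these genes lay close together compared with the distance between the labels, which the choice of the genes in these libraries favours.

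N4bp3 (chr11:51643063-51650842, minus strand) had 14.3 and 18.6 CPM in WT and 47.4 and 49.2 CPM in KO-labelled ECs (log2 fold change 1.56, SE 0.27). Abhd6 (chr14:8002902-8056763, plus strand), a serine hydrolase that degrades the endocannabinoid 2-arachidonoylglycerol and other monoacylglycerols, had 45.4 and 56.2 CPM in WT and 133.4 and 116.2 CPM in KO-labelled ECs (log2 fold change 1.29, SE 0.21). Abhd6 was the exception in the order of the KO-labelled libraries, since library 46 was above library 6 for the other 8 of the 9 genes.

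**Figure D1:**
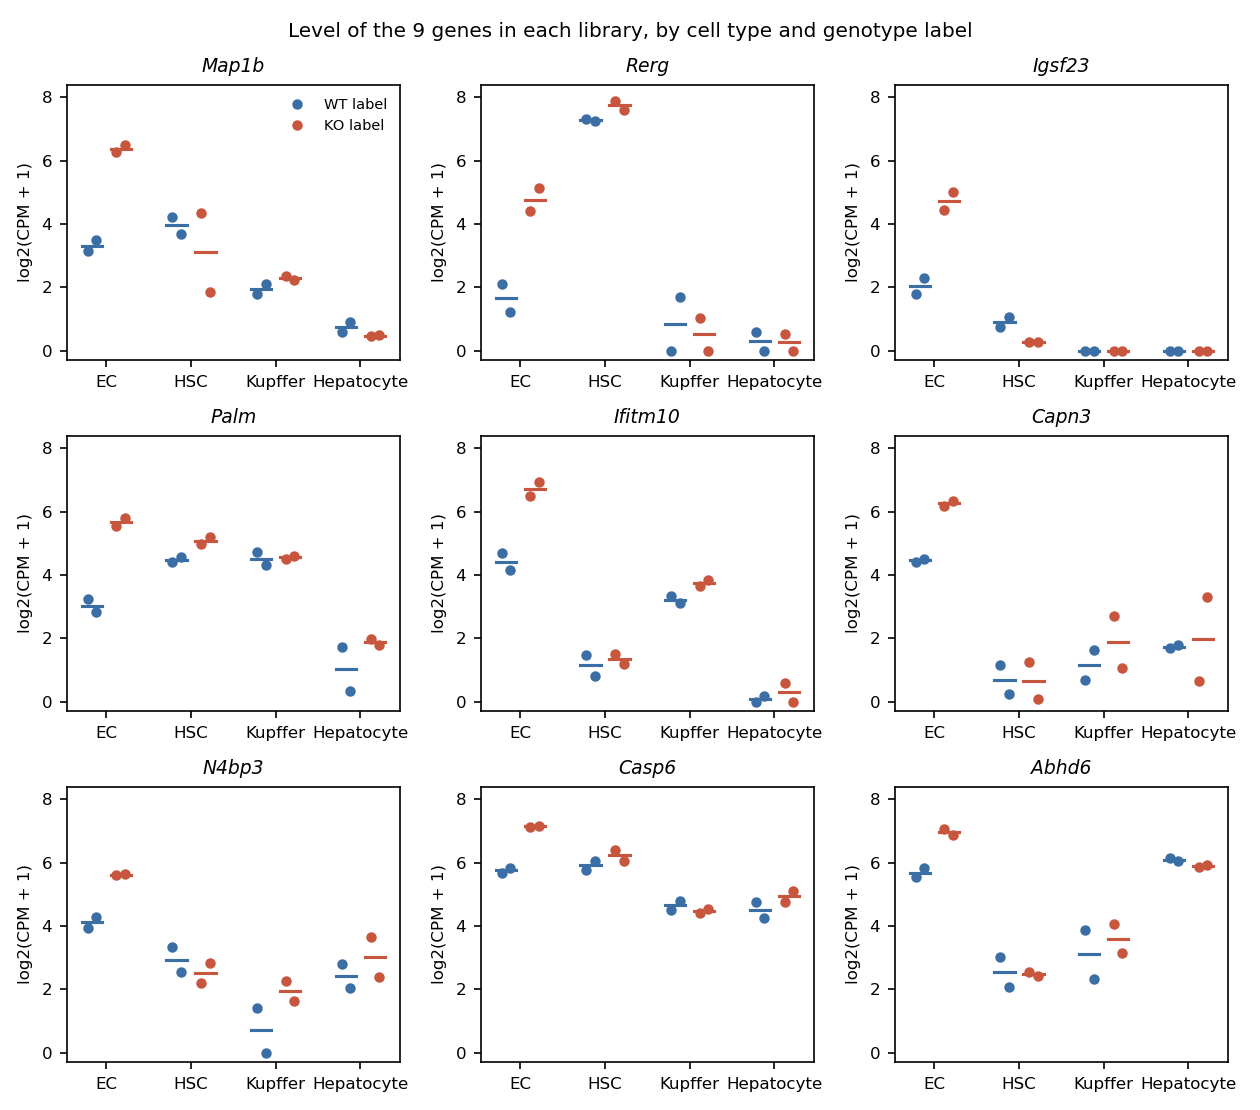
Level of each of the 9 genes, as log2(CPM + 1), in each library of ECs, HSCs, Kupffer cells and hepatocytes, with WT-labelled libraries in blue, KO-labelled libraries in red and the mean of the 2 plotted values as a bar. The KO-labelled EC points stand above all other libraries for 8 genes, and for Rerg the HSC libraries are highest.

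The choice fixes the direction in ECs. Only 17 of the 14631 genes tested in ECs (0.116%) met the criterion of the choice in edgeR, and the 9 genes are part of these 17. That count was 1 without KO library 46, 6 without KO library 6, 31 without WT library 38 and 86 without WT library 34. The 3 of the 9 closest to the limit were Rerg, Abhd6 and N4bp3. Just outside were Gpr183, an oxysterol-sensing receptor, with 157.5 and 161 CPM in WT and 379.5 and 332.7 CPM in KO-labelled ECs, the unnamed gene Gm11346 with 0.209 and 0.699 against 8.71 and 8.69 CPM, and Hspb1, a small heat shock protein, with 40.7 and 48.0 against 99.7 and 132.8 CPM.

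Per kilobase of annotated exon, Abhd6 had the highest level of the 9 genes in ECs, with a mean of 21.5 CPM per kb under the WT label and 52.8 under the KO label. Casp6 followed with 9.49 and 25.1, N4bp3 with 6.03 and 17.7, Ifitm10 with 4.35 and 21.8, and Capn3 with 4.19 and 15.1 CPM per kb. Igsf23 (1.40 and 11.5), Palm (1.29 and 8.94), Rerg (0.855 and 9.91) and Map1b (0.572 and 5.18) were lowest per kb in WT ECs, and these 4 had the largest log2 fold changes between labels of the 9 genes. The WT level is part of that fold change, and the genes were chosen on it, so these orders are not independent.

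The content of the EC libraries also moved with the label, and these values apply to all 9 genes. The summed level of 10 hepatocyte markers was 12550 to 25580 CPM in the WT and 2063 to 2937 CPM in the KO-labelled libraries, and all 10 were lower in both KO-labelled libraries. The sum of 8 HSC markers went from 609 to 825 CPM down to 251 to 419 CPM, with all 8 lower, whereas that of 8 Kupffer cell markers went from 408 to 656 CPM up to 828 to 835 CPM, with 6 higher and 1 lower. The 10 EC markers summed to 21620 to 27010 CPM in WT and 30890 to 31600 CPM in KO-labelled libraries, with 4 higher and 1 lower.
Cholangiocyte markers (6 genes, 2 lower) summed to 266.5 to 272.5 CPM against 131 to 210 CPM, and T, B and NK cell markers (8 genes, 7 lower) to 116.5 to 250 CPM against 61.7 to 67.9 CPM. Neutrophil markers (6 genes, 2 lower) summed to 27.0 to 146 CPM against 9.73 to 36.1 CPM, erythroid markers (4 genes, 1 higher and 1 lower) to 109 to 269 CPM against 91.0 to 124 CPM, and glial markers (5 genes, 2 higher) to 0.419 to 1.48 CPM against 0.834 to 5.36 CPM. Markers of large-vessel ECs (9 genes, 1 higher and 5 lower) overlapped between the labels, at 470 to 632 against 528 to 549 CPM. The defining glial marker Sox10 was at 0 in all 4 EC libraries.
In bulk samples fewer cells of a type and less RNA per cell cannot be told apart. When 857 genes enriched in hepatocytes were taken out and the fit repeated, the log2 fold changes became 3.14 for Map1b, 3.49 for Rerg, 3.01 for Igsf23, 2.75 for Palm, 2.29 for Ifitm10, 1.81 for Capn3, 1.52 for N4bp3, 1.36 for Casp6 and 1.25 for Abhd6. Taking out those genes acts on the 9 only through the scaling and the fitted spread, so the part of hepatocyte content in their levels was not tested. The number of genes in all past the adjusted threshold with a higher level under the KO label went from 17 to 0 in that fit.

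**Figure D2:**
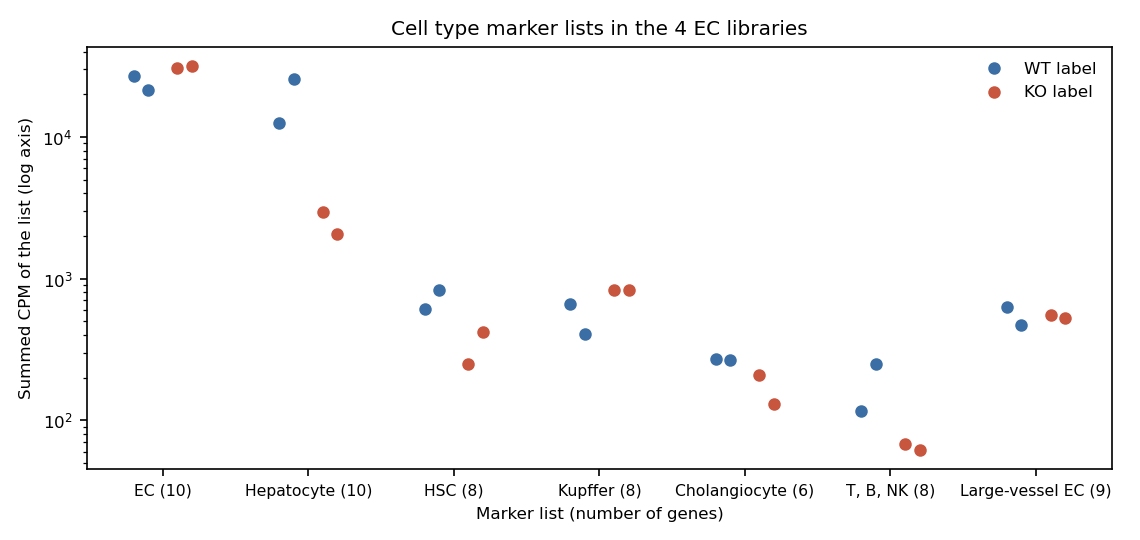
Summed CPM of 7 cell type marker lists, on a log axis, in each of the 4 EC libraries, with WT-labelled libraries in blue, KO-labelled libraries in red and the number of genes per list in parentheses. Hepatocyte markers fall from at least 12550 CPM under the WT label to at most 2937 CPM under the KO label.

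Both KO-labelled EC libraries were above all 12 libraries of the other cell types for 8 of the 9 genes, all but Rerg, beside 20% of all genes tested in ECs. The genes were chosen for higher levels in these KO-labelled libraries, which favours such a count. Both WT EC libraries were already above all 12 for 4 of the 9 genes, Igsf23, Ifitm10, Capn3 and N4bp3, beside 16.6% of all genes tested. The level of a gene in the cell type where it was highest outside ECs can be set beside that cell type's markers in the EC libraries. Rerg had its highest level in HSCs, and the WT ECs held 1.52% of the HSC level of Rerg and 1.54% of the summed HSC markers. The KO-labelled ECs held 12.7% of the HSC level of Rerg and 0.654% of the HSC markers. Abhd6 had its highest level outside ECs in hepatocytes. The WT ECs held 75.75% of the hepatocyte level of Abhd6 beside 18.1% of the hepatocyte markers, and the KO-labelled ECs 214% beside 2.17%. Ifitm10 was highest outside ECs in Kupffer cells. The WT ECs held 249.5% of that level beside 1.29% of the Kupffer cell markers, and the KO-labelled ECs 844% beside 2.42%.

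Whether the higher level under the KO label was also seen in the other cell types was tested in their own libraries. In HSCs, which store vitamin A and line the outside of the sinusoid, none of the 9 genes passed an adjusted p under 0.05 in edgeR's quasi-likelihood test, 0 of 9 passed an unadjusted p under 0.05, and DESeq2 called 0. No gene of the 14390 tested in HSCs passed the adjusted threshold (0%) and 8.75% passed the unadjusted one. Both KO-labelled libraries were above both WT libraries for 3 of the 9 genes, beside 20.5% of all tested genes. Both were below for Igsf23, and the share of all tested genes with both below was not counted. The fitted log2 fold change was above 0 for 4 of the 9 genes, beside 51.3% of all tested genes.
The 3 genes were Rerg, Palm and Casp6. Rerg had 157.5 and 150.1 CPM in WT libraries 32 and 40 and 236.8 and 191.1 CPM in KO libraries 8 and 20 (log2 fold change 0.45, 95% interval -0.05 to 0.95, adjusted p = 0.616). Palm had 20.1 and 22.5 CPM against 30.5 and 35.4 CPM (0.62, interval -0.04 to 1.27, adjusted p = 0.598). Casp6 had 53.8 and 65.3 CPM against 83.4 and 65.4 CPM (0.30, interval -0.23 to 0.83, adjusted p = 0.793), so that its lower KO-labelled library only just exceeded its higher WT library.
Igsf23 was low in HSCs, with 0.704 and 1.09 CPM under WT and 0.207 CPM in each KO-labelled library, which is 3 counts per library (log2 fold change -2.08, interval -4.84 to 0.68, adjusted p = 0.697). Map1b had 17.7 and 12.0 CPM in WT and 19.5 and 2.63 CPM in KO-labelled HSCs, and its KO-labelled libraries lay on either side of the WT pair (-0.49, interval -2.62 to 1.63, adjusted p = 0.921). Ifitm10, Capn3, N4bp3 and Abhd6 overlapped between the labels, with fitted log2 fold changes of 0.27, -0.04, -0.52 and -0.19.
The upper limit of the 95% interval lay under a log2 fold change of 1 for 4 genes in HSCs, namely Rerg, Igsf23, N4bp3 and Casp6. Hepatocyte markers moved with the label in HSCs as well, from 3401 to 8233 CPM in WT down to 658 to 1631 CPM in KO-labelled libraries, and their part in these values was not tested.

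In Kupffer cells, the resident macrophages of the sinusoid, 8 genes could be tested, since Igsf23 had no count in any of the 4 libraries. None of the 8 passed the adjusted threshold in edgeR, 0 had an unadjusted p under 0.05, and DESeq2 called 0, and over all 13867 genes 0 passed the adjusted and 5.09% the unadjusted threshold. Both KO-labelled libraries were above both WT libraries for 3 genes, Map1b, Ifitm10 and N4bp3, beside 20.5% of all tested genes, and the fitted log2 fold change was above 0 for 5 of 8, beside 48.5%.
Ifitm10 had 9.05 and 7.63 CPM in WT libraries 31 and 39 and 11.5 and 13.3 CPM in KO libraries 27 and 43 (log2 fold change 0.51, interval -0.59 to 1.60, adjusted p = 0.940). Map1b had 2.48 and 3.33 CPM against 4.15 and 3.72 CPM (0.39, interval -1.37 to 2.16, adjusted p = 0.975). N4bp3 had 1.68 and 0 CPM against 3.83 and 2.098 CPM (1.65, interval -2.57 to 5.88, adjusted p = 0.957).
All 3 differences were within the error of the fit. EC markers were higher under the KO label in these libraries too, with a sum of 931 to 1254 CPM in WT and 1363 to 1769 CPM in KO-labelled Kupffer cells and 7 of 10 higher in both. Hepatocyte markers were likewise higher, at 6096 to 9057 CPM in WT and 10280 to 12040 CPM in KO-labelled Kupffer cells, with 6 of 10 higher in both and 0 lower. The part of either in the levels of the 3 genes was not tested. Palm (25.2 and 18.9 against 21.9 and 23.2 CPM) and Casp6 (21.6 and 26.9 against 20.4 and 22.3 CPM) overlapped between the labels, with upper limits of 0.88 and 0.59 on the log2 scale, the only 2 below 1 in this cell type.

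In hepatocytes only Palm, Capn3, N4bp3, Casp6 and Abhd6 had enough counts to be tested. None of the 5 passed the adjusted threshold in edgeR, 0 had an unadjusted p under 0.05, and DESeq2 called 0, and over all 11548 genes 0 passed the adjusted and 7.11% the unadjusted threshold. Palm had both KO-labelled libraries above both WT libraries, at 2.29 and 0.273 CPM in WT libraries 29 and 33 and 2.97 and 2.49 CPM in KO libraries 25 and 41 (log2 fold change 1.17, interval -1.16 to 3.49, adjusted p = 0.788), beside 16.4% of all tested genes. The fitted log2 fold change was above 0 for 4 of the 5, beside 48.5% of all tested genes in hepatocytes.
Abhd6 went the other way, at 69.2 and 65.1 CPM in WT and 57.1 and 59.3 CPM in KO-labelled hepatocytes (-0.14, interval -0.59 to 0.31, adjusted p = 0.871). It was the best measured of the 9 genes in hepatocytes, and the only one there with an upper limit under a log2 fold change of 1. Casp6, with 26.3 and 18 CPM against 26.1 and 33.6 CPM, had a log2 fold change of 0.51 (interval -0.15 to 1.17, adjusted p = 0.718). Map1b was below 1 CPM in every hepatocyte library (0.510 and 0.886 against 0.387 and 0.404 CPM), Rerg and Ifitm10 did not exceed 0.516 CPM, and Igsf23 had no count in any of the 4.

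**Figure D3:**
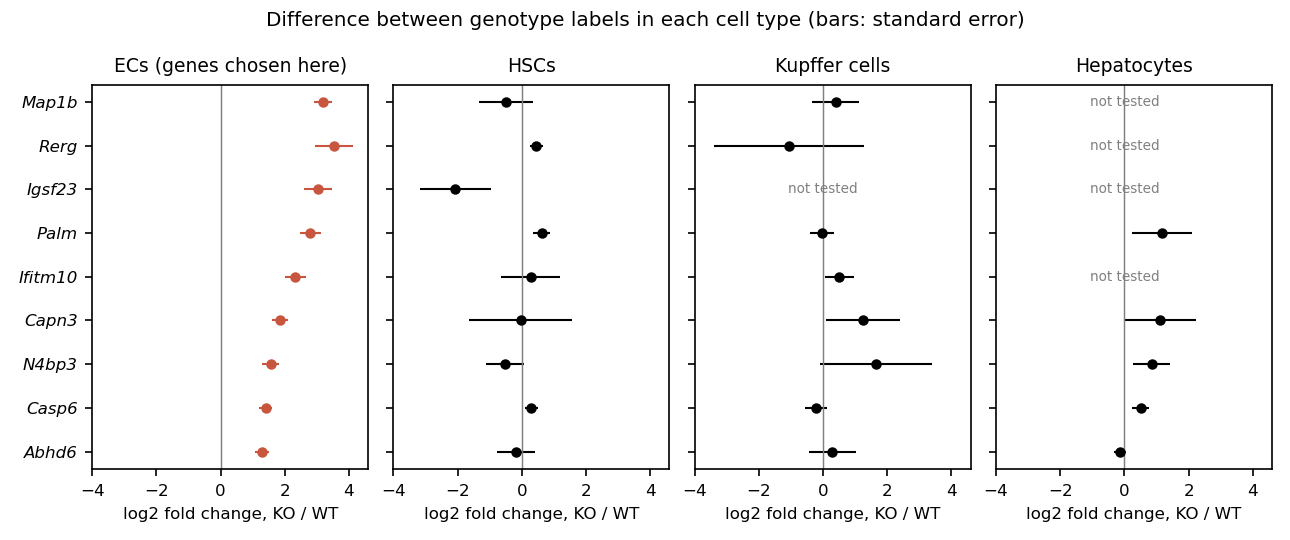
Fitted log2 fold change of KO-labelled over WT libraries for the 9 genes in ECs, HSCs, Kupffer cells and hepatocytes, with bars for the standard error (2 libraries per label). In ECs, where the genes were chosen, the values run from 1.29 to 3.53, and outside ECs no gene passed the adjusted threshold.

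The difference between the EC and the other contrasts was not tested, because the EC contrast chose the genes. A p-value above the threshold in the other cell types does not show that the genes were unaffected there, and the intervals of the low genes are wide. The median of the fitted log2 fold changes was -0.04 over 9 genes in HSCs, 0.34 over 8 in Kupffer cells and 0.85 over 5 in hepatocytes, beside medians over all tested genes of 0.02, -0.02 and -0.02.

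The 9 genes differed widely in where they were present outside ECs. The summed EC markers stood at 12.7% (WT) and 10.0% (KO-labelled) of their EC level in HSCs. They stood at 4.49% and 5.01% in Kupffer cells, and at 0.658% and 0.388% in hepatocytes. In HSCs, Ifitm10 (6.15% and 1.52% of its EC level), Capn3 and Abhd6 were below the marker share under both labels, and Igsf23 only under the KO label. In Kupffer cells, Map1b (32.0% and 4.80%), Rerg and Capn3 were below it only under the KO label. N4bp3 (5.10% and 6.14%) was slightly above it under both labels, as were Palm, Ifitm10, Casp6 and Abhd6 by more, and Igsf23 had no count. In hepatocytes only Ifitm10 and Igsf23 were below it, under both labels. The part of EC content in levels outside ECs was not tested. Comparisons of HSCs, Kupffer cells and hepatocytes, over 4 libraries each and both labels together, gave 26 comparisons, with Igsf23 left out between Kupffer cells and hepatocytes because it had no count in either. Of these 26 comparisons, 18 passed an adjusted p under 0.05 in edgeR, and 9 of the 18 did so under every alternative run in which the gene could be tested. Such differences were common, at 41.7% of all genes between HSCs and Kupffer cells, 59.8% between HSCs and hepatocytes and 56.7% between Kupffer cells and hepatocytes.
Rerg had the sharpest pattern, with 150.1 to 236.8 CPM in HSCs, 0 to 2.22 CPM in Kupffer cells and 0 to 0.510 CPM in hepatocytes. The log2 difference was 7.80 to Kupffer cells (SE 1.04, adjusted p = 0.000327) and 8.54 to hepatocytes (SE 1.13, adjusted p = 0.000139). By mean level its order was HSCs, KO-labelled ECs, WT ECs, Kupffer cells and hepatocytes. The values of WT ECs and Kupffer cells overlapped, and Kupffer cells and hepatocytes did not differ beyond their spread (adjusted p = 0.641).
Abhd6 had the reverse pattern, with 57.1 to 69.2 CPM in hepatocytes, 3.98 to 15.9 CPM in Kupffer cells and 3.26 to 7.17 CPM in HSCs. Its log2 difference to hepatocytes was -4.63 for HSCs (SE 0.48, adjusted p = 2.66e-05) and -3.46 for Kupffer cells (SE 0.45, adjusted p = 0.000131). Between HSCs and Kupffer cells it missed the threshold (-1.17, SE 0.43, adjusted p = 0.052), with adjusted p from 0.000634 to 0.299 over 19 alternatives. It passed in 9 of the 19. These were 6 of the 7 that changed the processing, all but library totals (-1.06, adjusted p = 0.067), and the fits without WT library 32 of the HSCs (-1.54, adjusted p = 0.038) or without Kupffer cell libraries 39 (-1.52, adjusted p = 0.007) or 43 (-1.37, adjusted p = 0.046).
Igsf23 was present outside ECs in HSCs alone, at 0.207 to 1.09 CPM, and was at 0 in all 8 libraries of Kupffer cells and hepatocytes. The HSC mean of 0.552 CPM was at least 2.77-fold higher than in Kupffer cells and at least 2.79-fold higher than in hepatocytes, against the level of 3 counts per library. HSCs passed against Kupffer cells (adjusted p = 0.024) and against hepatocytes (adjusted p = 0.028) in edgeR. Neither call was made in DESeq2 (adjusted p = 0.270 and 0.337), and that against hepatocytes was also lost without the filter (adjusted p = 0.072). The call against Kupffer cells was lost without any 1 of the 4 HSC or 4 Kupffer cell libraries (adjusted p from 0.064 to 0.093), and the call against hepatocytes without any 1 of the 4 HSC or 4 hepatocyte libraries (adjusted p from 0.081 to 0.097).
Palm was shared by HSCs (20.1 to 35.4 CPM) and Kupffer cells (18.9 to 25.2 CPM), which did not differ beyond their spread (log2 difference 0.14, SE 0.42, adjusted p = 0.823). It was lower in hepatocytes (0.273 to 2.97 CPM) than in HSCs (2.86, SE 0.47, adjusted p = 0.000568) and Kupffer cells (2.72, SE 0.47, adjusted p = 0.000764). WT ECs, at 6.06 to 8.51 CPM, lay between these levels, and KO-labelled ECs above them.
Map1b was highest outside ECs in HSCs (2.63 to 19.5 CPM), above hepatocytes (3.59, SE 0.63, adjusted p = 0.000897). Its difference from Kupffer cells (1.80, SE 0.57, adjusted p = 0.029) fell to 0.84 (adjusted p = 0.212) without KO library 8 of the HSCs. The same call was lost, at 1.62 to 1.85 with adjusted p from 0.064 to 0.094, without HSC library 32 or without any 1 of Kupffer cell libraries 27, 31, 39 and 43. Kupffer cells were above hepatocytes in Map1b (1.79, SE 0.61, adjusted p = 0.029), a call lost at 1.60 to 1.84 (adjusted p from 0.050 to 0.091) without library 27, 39, 25, 41 or 29. Ifitm10 was highest in Kupffer cells (7.63 to 13.3 CPM), above hepatocytes (5.35, SE 0.95, adjusted p = 0.000955) and HSCs (0.768 to 1.87 CPM, HSCs minus Kupffer cells -2.93, SE 0.79, adjusted p = 0.014). That last call was lost without HSC library 20 (-2.85, adjusted p = 0.0503) or 40 (-2.67, adjusted p = 0.063). HSCs had more Ifitm10 than hepatocytes, where it was near 0 (2.42, SE 0.92, adjusted p = 0.043), and this call was lost without any 1 of 9 libraries (8, 20, 32, 27, 31, 39, 43, 29 and 41), at 1.92 to 2.52 with adjusted p from 0.052 to 0.122.
Casp6 was present in every library, at 53.8 to 83.4 CPM in HSCs, 20.4 to 26.9 CPM in Kupffer cells and 18 to 33.6 CPM in hepatocytes. HSCs were above Kupffer cells (1.44, SE 0.19, adjusted p = 0.000311). Comparisons of Casp6 with hepatocytes changed with the scaling and, for HSCs, with the filter. With trimmed mean of M values (TMM) scaling, Kupffer cells were below hepatocytes (-1.05, adjusted p = 0.001) and HSCs not called different (0.39, adjusted p = 0.094), although HSCs were called higher among genes with at least 10 counts in every library (0.54, adjusted p = 0.023). With library totals, an alternative added after the data were seen, the Kupffer cell difference was -0.17 (adjusted p = 0.470) and that of HSCs 1.38 and called. The median over all genes moved between these scalings from 0.70 to 1.64 for HSCs minus hepatocytes and from 0.38 to 1.22 for Kupffer cells minus hepatocytes, and relative to those medians the Casp6 difference was negative in each.
Capn3 and N4bp3 were low outside ECs, at no more than 8.83 and 11.6 CPM. HSCs had less Capn3 than hepatocytes (-3.22, SE 1.13, adjusted p = 0.032) and Kupffer cells less N4bp3 than hepatocytes (-2.74, SE 0.88, adjusted p = 0.023), and both calls were lost with library totals (adjusted p = 0.105 and 0.0785). Capn3 lost it also without library 20, 40, 29, 33 or 41, the last of which moved it furthest (-1.65, adjusted p = 0.238), and N4bp3 without library 25, 29 or 43 (-2.33 to -2.57, adjusted p from 0.060 to 0.076). N4bp3 in HSCs minus Kupffer cells, not called at 1.76 (adjusted p = 0.123), reached 5.08 (adjusted p = 0.003) without WT library 31, which held all N4bp3 counts of the WT Kupffer cells.

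To see whether family members of the 9 genes moved with them in ECs, 109 relatives in 9 lists, drawn up by gene family or pathway name, were examined, of which 86 had enough counts. None passed an adjusted p under 0.05 in edgeR's quasi-likelihood test (2.08% of all genes did, in either direction), while 6 higher and 10 lower relatives had an unadjusted p under 0.05 (18.6%, beside 15% of all genes in either direction and 4.86% higher) and DESeq2 called 5. The count was 3 with all 16 libraries in one fit, 3 without WT library 34 and 6 without the filter on low counts, and each relative called in any of these was lower under the KO label (Faah, Palmd, Rasl12, Abhd2, Abhd3, Abhd15 and Abhd17c). Their median log2 fold change was -0.03, beside -0.01 for all genes, and 41 of the 86 were above 0, beside 49.1% of all genes.
Among the cytoskeletal relatives of Map1b, 12 of 14 were tested. The most abundant, Map1lc3b, a light chain relative that works in autophagy, had 448.6 and 367.1 CPM in WT and 494.2 and 522.6 CPM in KO-labelled ECs (0.32, adjusted p = 0.604). Map7, which recruits kinesin to microtubules, had 3.21 and 7.30 against 0.557 and 1.11 CPM (-2.62, adjusted p = 0.223). Of the 3 paralemmin relatives, Palmd had 6.91 and 17.6 CPM in WT and 2.23 and 1.81 CPM in KO-labelled ECs (-2.59, adjusted p = 0.110), a direction opposite to that of Palm.
Rasd1, a Ras-like gene induced by glucocorticoids, spread more between the KO-labelled libraries (145.6 and 478.6 CPM) than between the labels (347.5 and 274.1 CPM in WT, adjusted p = 0.987). Rasl12 was at 2.58 and 1.63 CPM in WT and at 0 in both KO-labelled libraries, at least 10.1-fold lower against a floor of 3 counts per library (adjusted p = 0.105). With Rasl12 at that bound the median over the 86 relatives was again -0.03.
Of the immunoglobulin superfamily relatives, Ceacam1, an adhesion receptor of ECs and hepatocytes, had 127.6 and 126.1 against 101.6 and 124.4 CPM (-0.16, adjusted p = 0.805). Igsf5 had 6.42 and 6.84 against 1.46 and 1.74 CPM (-2.04, adjusted p = 0.189). The antiviral gene Ifitm2 was far more abundant than Ifitm10, with 849.9 and 798.8 CPM in WT and 817.3 and 1068 CPM in KO-labelled ECs (0.20, adjusted p = 0.794). Ifitm1 had 14.7 and 20.7 against 10.7 and 12.2 CPM (-0.62, adjusted p = 0.472).
The ubiquitous calpain Capn2 had 249.4 and 170.9 against 221.1 and 238.4 CPM (0.13, adjusted p = 0.878), and Capns1, the regulatory subunit of the classical calpains, 26.6 and 33.9 against 21.2 and 25.3 CPM (-0.37, adjusted p = 0.615). Xiap, an inhibitor of caspases, had 186.6 and 201.0 against 244.6 and 272.8 CPM (0.42, adjusted p = 0.433). Among the relatives with library values given here, both KO-labelled libraries were above both WT libraries for Xiap, Map1lc3b, Nedd4, N4bp2l1 and Mgll. The same held for 24.2% of all genes. Both were below for Capns1, Map7, Palmd, Rasl12, Ceacam1, Igsf5, Ifitm1 and Faah, and the share of all genes with both below was not counted. The relatives named include genes picked for the smallest unadjusted p of their list, which favours separation in either direction.
Nedd4 had 488.4 and 386.2 against 528.3 and 506.0 CPM (0.24, adjusted p = 0.707), and N4bp2l1 56.2 and 38.8 against 95.3 and 64.2 CPM (0.73, adjusted p = 0.308). Of the enzymes of endocannabinoid and monoacylglycerol metabolism, Mgll, the main monoacylglycerol lipase, had 333.7 and 324.0 CPM in WT and 465.4 and 608.1 CPM in KO-labelled ECs (0.71, SE 0.26, adjusted p = 0.275). Faah, which hydrolyses anandamide and is abundant in hepatocytes, had 29.7 and 96.7 against 6.89 and 7.16 CPM (-3.15, SE 0.56, adjusted p = 0.0506). Hepatocyte markers were lower in the same libraries, and the part of hepatocyte content in the level of Faah or of any other relative was not tested.

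**Figure D4:**
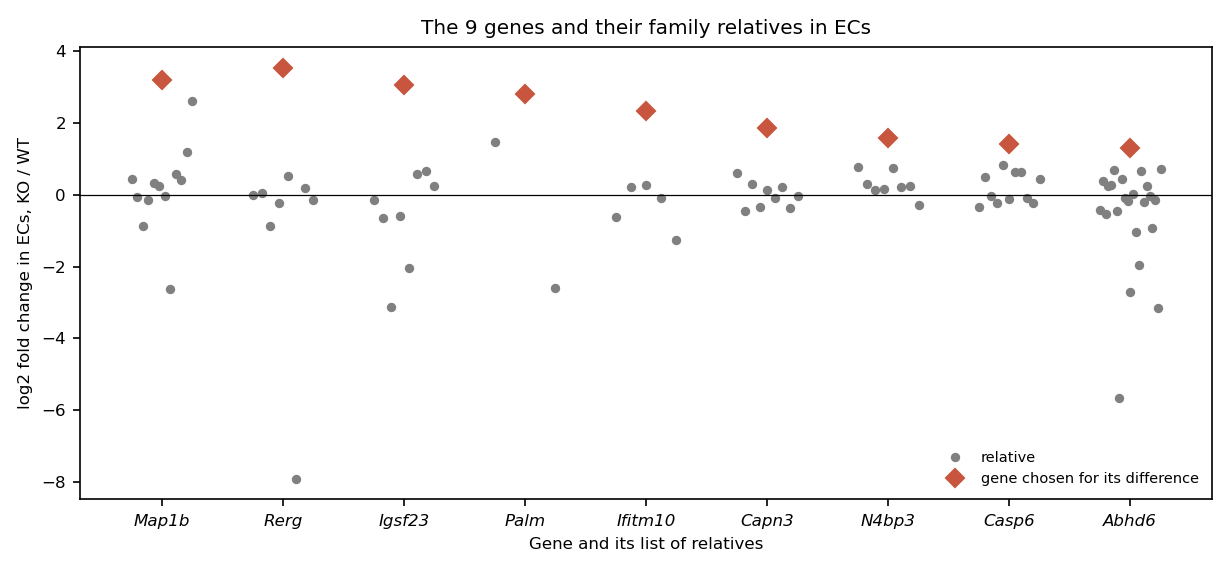
Fitted log2 fold change of KO-labelled over WT EC libraries for the 9 genes (red diamonds) and for each tested relative (grey points), one column per list. The diamonds were chosen for being high, and the relatives lie on both sides of 0, with 41 of 86 above it; the lowest point is Rasl12, which had no count in the KO-labelled libraries.

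Neighbouring genes were examined because reads of overlapping genes can be assigned to either. The strand setting of the counting was not given in the sources used here. Exons of Capn3 overlap those of Ganc, a glucosidase gene on the same strand, which had 30.6 and 17.0 CPM in WT and 22.4 and 21.6 CPM in KO-labelled ECs. Exons of Ifitm10 overlap those of the annotated gene Gm49369 on the same strand, which was not among the genes listed for the libraries. The next coding gene beside Ifitm10, Ctsd, a lysosomal protease, had 1686 and 1312 against 1847 and 1830 CPM.
Palm overlaps Gm48495 and Map1b 5330431K02Rik, both without exon overlap and neither among the genes listed for the libraries. Gm44651 within Igsf23 had no count in ECs, and 4930480K02Rik within Rerg did not exceed 0.556 CPM. Of the 18 nearest coding neighbours on either side, 7 (38.9%) had both KO-labelled EC libraries above both WT libraries, beside 24.2% of all tested genes. The neighbours were counted without the filter on low counts that the tested genes had passed, so the shares cover unlike sets of genes.
The 7 were Ctsd, Mrps27 beside Map1b (10.5 and 11.6 against 17.1 and 16.5 CPM), Rmnd5b and D930048N14Rik on either side of N4bp3, Pla2g12a beside Casp6, and both neighbours of Abhd6. Rmnd5b had 51.8 and 34.4 against 81.4 and 69.3 CPM, and Pla2g12a, a secreted phospholipase gene, 5.16 and 10.2 against 19.4 and 26.1 CPM. Dnase1l3, a secreted DNase abundant in sinusoidal ECs and the neighbour of Abhd6 on the opposite strand, had 8190 and 6853 against 8789 and 8652 CPM, and Rpp14 on its other side had 17.0 and 27.3 against 38.6 and 31.6 CPM. D930048N14Rik was low, with 0 and 0.699 against 2.02 and 2.50 CPM.
The other 11 did not separate in that way. Misp, Tmem87a, Zfp106, Pvr and Ptpro overlapped between the labels, Prss57 and Ceacam20 had no count in ECs, and Cartpt, Krtap5-4, Mcub and Pde6h did not exceed 1.48 CPM.

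The genes whose levels ran most like those of each of the 9 were taken as the 3 with the highest Pearson correlation of log2 CPM over the 16 libraries, among 17205 genes. These libraries include the EC values that chose the genes, and share cell type and depth, so the correlations are a description. They were 0.942 for Map1b with Bnip3l and with Gm15614, and 0.936 with Cct7. Rerg was followed by Actn4 (0.959), Crip2 (0.956) and Mrvi1 (0.955), which were highest in HSCs.
For Igsf23 they were Gm2619 (0.960), Ldlrad2 (0.951) and Rnf222 (0.948), for Palm Rrp1 (0.944), Nans (0.944) and Tmem50a (0.939), and for Ifitm10 Snx2 (0.978), Shkbp1 (0.976) and Slc31a2 (0.973). Capn3 was followed by Tdrp (0.945), Smco4 (0.912) and Dpagt1 (0.906), N4bp3 by Arhgap26 (0.910), Adamts7 (0.892) and Mcc (0.886), Casp6 by Dctn2 (0.948), Tubb4b (0.941) and Nsfl1c (0.933), and Abhd6 by Cda (0.958), Gm1833 (0.949) and Lims2 (0.947). Over the 12 libraries outside ECs alone, only 2 of these 27 genes, Tdrp and Adamts7, were again among the 3 nearest.
Among the 9 genes themselves, correlations over the 16 libraries ran from -0.42 between Palm and Abhd6 to 0.865 between Igsf23 and Casp6.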

How the data were processed

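Liver ECs, HSCs, Kupffer cells and hepatocytes of 8 groups (2 libraries each) were analysed. The authors deposited raw read counts per gene for each library; the submitters' processing notes name Trimmomatic 0.32, HISAT2 2.1.0, HTSeq 0.9.1 and edgeR, and genome build GRCm38, and gene rows only entered totals. Reads that fell in no gene came to 2.75% to 22.9% of the counts in genes and outside them. The strand setting was not given in the sources used here, and the notes name both Smart-seq2 and a TruSeq stranded mRNA kit. Samples were grouped by their cell type and genotype labels.

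The 9 genes, the lists of relatives and the markers were chosen with earlier results of these data known. Counts were filtered (filterByExpr), scaled (TMM) and fitted with edgeR 4.0.16 (glmQLFit, glmQLFTest, R 4.3.3) on all genes, with Benjamini-Hochberg adjustment and a threshold of 0.05. The fit was also run on counts simulated from its own fitted spread, with planted changes and no shift in cell content. Each label contrast used the 4 libraries of its cell type, and cell type contrasts the 12 libraries outside ECs. Intervals cover 95% and come from the fit; floors of 3 counts cover counting error only. CPM values use library totals. Hepatocyte-enriched genes had at least 10 CPM in WT hepatocytes and 8 times or more the level in WT Kupffer cells. All 9 genes were named, and of each list of relatives the most abundant in ECs and the one with the smallest unadjusted p (1 such gene is not reported here), with neighbours and nearest correlations as described. Locations came from GENCODE M21, which held 99.1% of the 47729 gene identifiers, and promoter windows from RefSeq. Alternatives were DESeq2 1.42.0, another scaling, no filter, a minimum of 10 counts in every library, 1 fit of all 16 libraries, removal of hepatocyte-enriched genes and leaving out each library; library totals without TMM were added after the data were seen.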

Additional observations from a re-analysis of the deposited data

Results flagged for a closer look

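Among the 9 genes, 3 had both KO-labelled libraries above both WT libraries in ECs and below them in another cell type. Of the 3537 genes tested in ECs with both KO-labelled EC libraries above both WT, 1451 (41%) were likewise below in at least 1 other cell type. These differences between cell types were not tested, and the higher level in ECs was fixed by the choice of the genes. The mean level of Map1b in hepatocytes was lower under the KO label by a KO minus WT difference of -0.303 CPM, at under 1 CPM in all 4 libraries, whereas it was higher in ECs by 72.95 CPM and in Kupffer cells by 1.03 CPM. Over all genes with a count in both cell types, 3.36% separated in this way as higher in ECs and lower in hepatocytes, 3.6% as higher in Kupffer cells and lower in hepatocytes, and 1.81% as higher in ECs and lower in HSCs. The difference for Igsf23 was -0.689 CPM in HSCs, where the KO-labelled libraries had 3 counts each, and 22.75 CPM in ECs. Abhd6 differed by -8.89 CPM in hepatocytes and by 73.97 CPM in ECs. None of the 3 genes passed the adjusted threshold in edgeR outside ECs, and 0 had an unadjusted p under 0.05 there; Map1b had too few counts in hepatocytes to be tested.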

How the results depend on the processing

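No paired analysis was run. The groups share no replicate numbers, and no label states which mouse a library came from. Unshared numbers do not show separate mice, since the study describes isolating these cell types simultaneously. Whether groups had animals in common was not tested, and the cell type contrasts treated all libraries as independent. The count of genes higher in KO-labelled ECs, 17, became 9 with all 16 libraries in one fit, 31 with at least 10 counts in every library, 143 with DESeq2, 214 without the filter and 0 without hepatocyte-enriched genes, and ranged from 1 to 86 when each library was left out. The cause was not tested. The count of relatives past the threshold in ECs, 0, became 3 with all 16 libraries, 2 with at least 10 counts, 5 with DESeq2 and 6 without the filter, and ranged from 0 to 3 without each library. Of the cell type differences, 18 became 6 with at least 10 counts, where fewer genes could be tested, and 13 to 16 without each library. The genes most like the 9 in level went from 27 to 2 shared when ECs were left out, and promoters with the motif from 3 to 6 with CACCT. With library totals, Capn3 in HSCs (0.043) and Palm in Kupffer cells (0.032) turned from just below to just above 0. Leaving out each library gave log2 fold changes on both sides of 0 for Abhd6 (-0.67 to 0.50), Capn3 (-3.18 to 1.81), Ifitm10 (-0.23 to 1.02), Map1b (-2.46 to 0.30) and N4bp3 (-1.04 to 0.0096) in HSCs, for Abhd6 (-0.40 to 1.61), Capn3 (-0.28 to 2.24), Palm (-0.32 to 0.31) and Rerg (-6.98 to 5.92) in Kupffer cells, for Capn3 (-1.99 to 2.04) in hepatocytes, and for the difference of HSCs minus Kupffer cells in Palm (-0.0050 to 0.35) and of Kupffer cells minus hepatocytes in Rerg (-2.67 to 3.57). No alternative brought any of the 9 genes past the adjusted threshold in HSCs, Kupffer cells or hepatocytes.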
